A study of Mus musculus with 14 samples.

Results

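The adult villus and the embryonic endoderm of the mouse small intestine were compared on oligonucleotide arrays: 3 samples of villi against 1 sample of endoderm. These 4 samples are those of the series whose source is given as villi, or as endoderm in the same 8-array table, out of 14 samples in the series. The villi came from the small intestine of C57BL/6 mice aged 12 weeks, 1 mouse per sample, and carry the labels V12, V41 and V275, in which order their values are given below. The endoderm was dissected at embryonic day 12 (E12) from fetal intestine digested with collagenase, and was 1 pool from 35 fetuses, whose strain the labels used here do not name. No agent or engineered allele is named for either group. The same table holds 3 samples of adult crypts (K12, K21 and K41, same strain and age) and 1 E12 mesenchyme pool of 35 fetuses, and their values are set beside those of the villi and the endoderm. Values are log2 signals, so a difference of 1 is a 2-fold change, and no level of a gene is set against that of another gene. Of 12393 genes with a probe set annotated to 1 symbol, 10750 were tested. The other 1643 stayed under the 30th percentile of the table, a log2 signal of 5.78 that is called background here, on every array. A gene that passed only through the tissue where it is high had to differ, so the counts of each list support nothing by themselves. Each count below is to be read against the shares over all tested genes, 16.3% called higher and 22.6% called lower.

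At E12 the gut lining is a proliferating endodermal tube wrapped in mesenchyme, before villi form. In the adult, stem and dividing cells are kept to the crypts, and their progeny move onto the villi as absorptive enterocytes with a few secretory cells, to be shed at the tip. Enterocytes digest sugars and peptides on a brush border of microvilli, take up the products and export fat as chylomicrons. A whole villus also contains a core of connective tissue, vessels and immune cells, and T cells lodged within the epithelium.

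The labelled tissues were first checked against their markers. Epcam, which encodes an adhesion molecule of epithelia, measured 12.66, 13.42 and 12.87 in villi V12, V41 and V275 and 12.17 in the endoderm, against 7.36 in the mesenchyme. Cdh1, encoding E-cadherin, measured 9.90, 11.11 and 9.83 in the villi, 9.05 in the endoderm and 4.22 in the mesenchyme. Epithelial genes were therefore high in both tissues, and neither the Epcam difference of 0.81 ± 0.32 (SE) nor the Cdh1 difference of 1.22 ± 0.49 passed the test (limma, adjusted p = 0.081 and 0.084). Vil1, encoding the microvillus protein villin, measured 12.49, 12.79 and 12.90 in the villi and 9.28 in the endoderm, 10.9-fold higher in the villi (difference 3.44 ± 0.37, adjusted p = 0.00034). All 3 villus values of Vil1 lay above the endoderm value, and the mesenchyme array read 5.45. Over 28 tested genes of epithelial identity, the median of mesenchyme minus endoderm was -3.34. Over 16 stroma genes the same median was 3.23, and it was 3.27 over 12 smooth muscle genes, 1.67 over 11 endothelial genes and 2.41 over 9 enteric neural crest genes. Col1a1, a fibroblast collagen chain, measured 6.65 in the endoderm against 9.13 in the mesenchyme, and Pecam1, an endothelial adhesion molecule, was near background in the endoderm at 5.19 against 7.52.

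**Figure D1:**
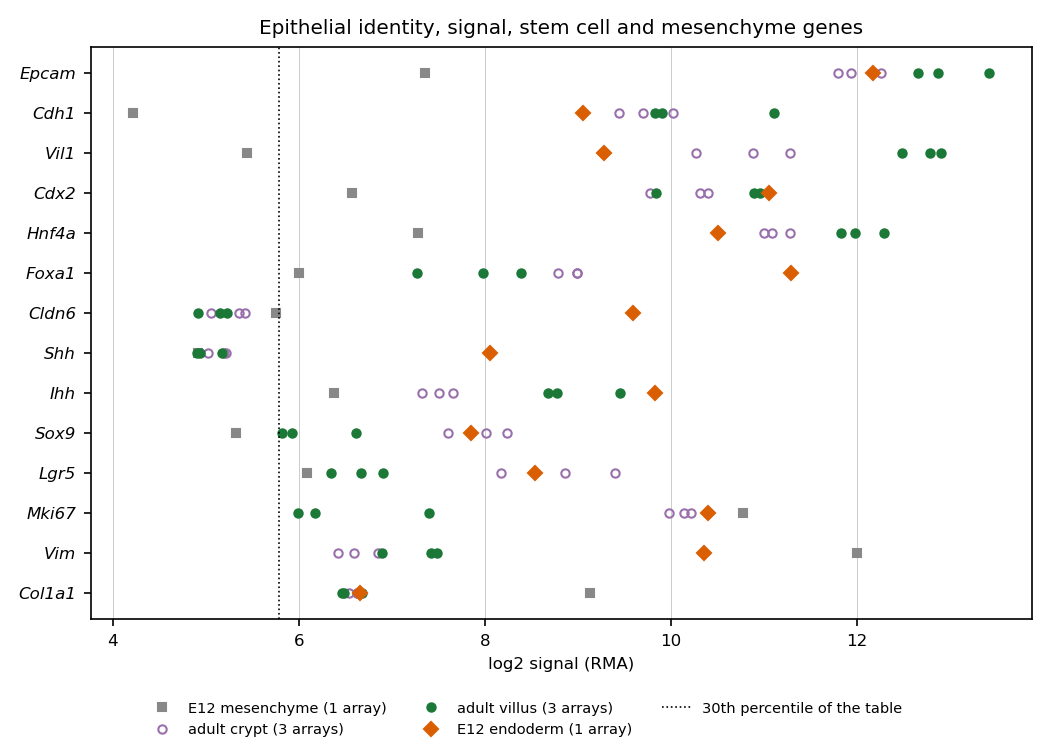
Log2 signal of 14 genes on the 8 arrays of the table (x axis), 1 row per gene, with filled circles for the 3 villus arrays, open circles for the 3 crypt arrays, a diamond for the endoderm array, a square for the mesenchyme array and a dotted line at the 30th percentile, 5.78. Epcam, Cdh1 and Cdx2 are high in both tissues, Foxa1, Cldn6 and Shh are high in the endoderm array, and the endoderm values of Sox9, Lgr5 and Mki67 lie near or within those of the crypts.

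Across genes, the villus arrays correlated with each other at 0.963 to 0.981 and with the endoderm array at 0.749 to 0.808, while the crypt arrays correlated with it at 0.872 to 0.883 and the mesenchyme array at 0.921. In the limma fit 4185 of 10750 genes were called at an adjusted p under 0.05, which is 38.9%. Of these, 1756 (16.3% of all tested) were higher in the villi and 2429 (22.6%) were lower, and 5249 genes had an unadjusted p under 0.05. All 3 villus arrays lay above the endoderm array for 5143 genes (47.8%) and below it for 3975 (37%). The median difference over all genes was 0.12. Rises reached further than falls: 161 genes were called higher by at least 16-fold and 50 lower by as much, and at 32-fold the counts were 76 and 10. With 1 endoderm array there is no replicate check of that group, and the test assumes that it varies as the adult arrays do. In bulk tissue, fewer cells of a type and less RNA per cell cannot be told apart.

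The 12 largest rises were Reg3g, Lgals3, Clca1, Clec2h, Fabp6, Apoc3, Mep1b, Cd74, Lct, Pigr, Tmigd1 and H2-Aa. Reg3g, which encodes a secreted antibacterial lectin, measured 12.17, 12.88 and 12.83 in the villi and 4.99 in the endoderm, a difference of 7.64 ± 0.63 (adjusted p = 0.00013). Lgals3, encoding galectin-3, measured 12.76, 13.12 and 12.68 against 5.24, a difference of 7.61 ± 0.68. Pigr, the receptor that carries polymeric IgA across the epithelium, measured 12.60, 12.66 and 12.83 against 5.77. Its 3 crypt values, 12.33 to 12.71, overlapped those of the villi, whereas the crypt values of Lgals3, 8.76 to 10.94, lay between the endoderm and the villi. Clec2h, a C-type lectin gene, differed by 7.52 ± 0.67, and Tmigd1, an adhesion molecule gene of enterocytes, by 6.88 ± 0.88. The endoderm values of these genes, other than Mep1b and Cd74, were under 5.78, so their folds are set by a signal near background and are not exact.

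The 12 largest falls were Bex1, Mdk, Grb10, Bex4, Cks1b, Hmga2, Cnn3, Psat1, Peg3, Pfn2, Mif and Igf2bp3. Bex1, an X-linked gene of the small brain-expressed family, measured 4.62, 3.92 and 3.97 in the villi and 11.46 in the endoderm, a difference of -7.29 ± 0.51 (adjusted p = 7.1e-05). Its crypt values of 8.08 to 9.47 lay between them, while those of its relative Bex4, 4.71 to 4.87, were nearly as low as in the villi at 4.54 to 4.61 against 9.85 in the endoderm. Mdk, encoding the heparin-binding growth factor midkine, measured 6.82, 6.71 and 6.56 against 13.20, a 90.5-fold fall. Cks1b, a partner of cyclin-dependent kinases, fell by 5.19 ± 0.38 on the log2 scale, and Cnn3, an actin-binding calponin, fell by 5.14 ± 0.39. Pfn2, an actin-binding profilin, measured 4.84, 5.18 and 5.31 against 10.17. The villus values of Bex1, Bex4, Psat1 and Pfn2 were near background, so the sizes and order of these falls are not exact. Mif, encoding a cytokine, stayed above background in the villi at 8.46, 7.98 and 7.78 against 13.06.

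**Figure D2:**
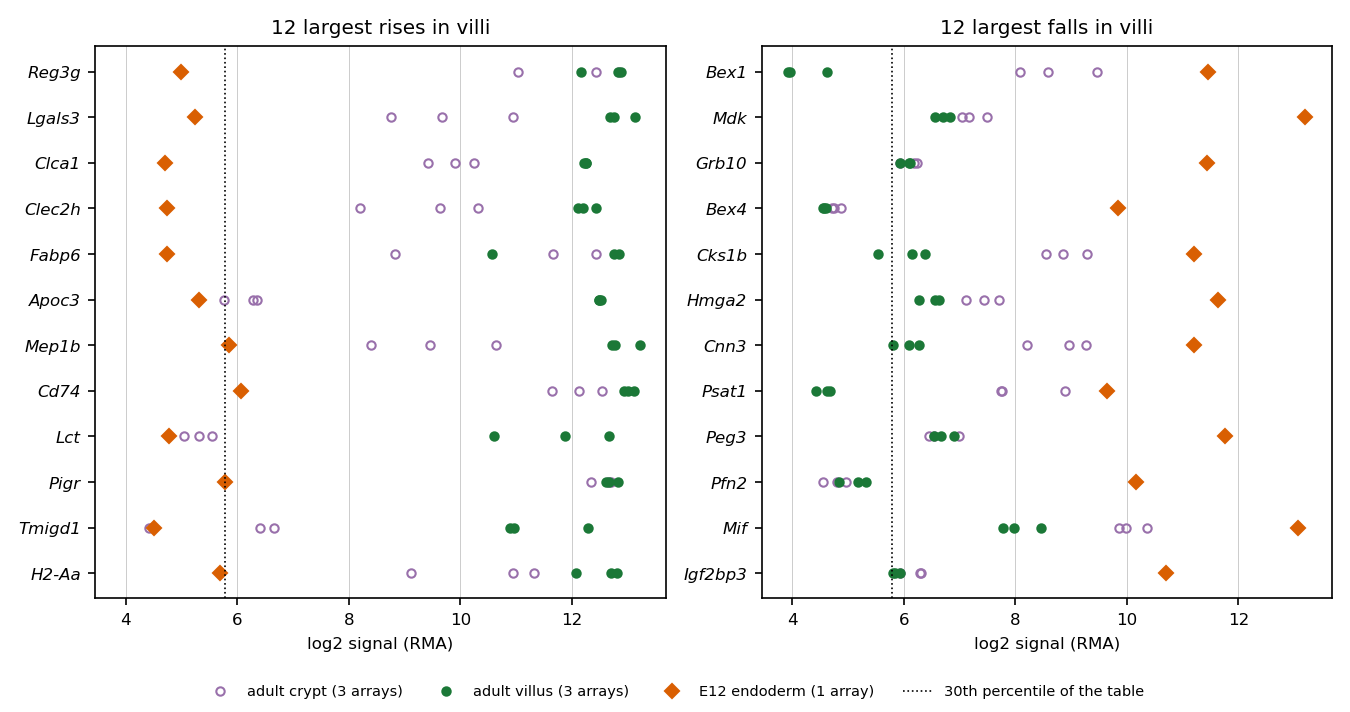
Log2 signal (x axis) of the 12 genes with the largest rises (left) and the 12 with the largest falls (right) among called genes, with filled circles for villus arrays, open circles for crypt arrays, a diamond for the endoderm array and a dotted line at 5.78. In every row the 3 villus values and the endoderm value are apart, and the crypt values of Pigr are at the villus level while those of Lct and Apoc3, 5.03 to 6.35, lie within about 1 log2 unit of the endoderm value.

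Genes of digestion at the cell surface were higher in the villi. Of 15 brush border hydrolases tested out of 24 listed, 14 rose and 0 fell, with a median difference of 3.75 against 0.12 over all genes. Lct, encoding lactase, measured 11.87, 10.60 and 12.66 in villi V12, V41 and V275 and 4.77 in the endoderm, a 123-fold rise (6.94 ± 0.66, adjusted p = 0.0002). Mep1b, a subunit of the metalloprotease meprin, measured 12.72, 12.77 and 13.22 against 5.86. Treh, which encodes trehalase, measured 10.96, 10.78 and 11.10 against 5.26. In each of these genes all villus values were at least 5 log2 units above the endoderm value, and the crypt arrays read 5.03 to 5.55 for Lct and 6.21 to 6.28 for Treh. Anpep (aminopeptidase N) rose by 4.67, Dpep1 (a membrane dipeptidase) by 5.28, Dpp4 (dipeptidyl peptidase 4) by 3.00 and Ace (angiotensin-converting enzyme) by 3.75. Akp3, an intestinal alkaline phosphatase gene, differed by 0.40 and was not called. Over the list, the crypt arrays differed from the endoderm by a median of 0.72 and the villi from the crypts by 3.38.

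The scaffold of the microvillus rose with the enzymes it carries. Of 13 such genes tested out of 18 listed, 12 rose and 0 fell, with a median difference of 3.02. Pdzk1, a scaffold for apical transporters, measured 11.11, 10.85 and 11.42 in the villi and 6.00 in the endoderm. Cdhr5, a cadherin that links neighbouring microvilli, measured 13.30, 13.42 and 13.47 against 8.58, so it was well above background in the endoderm already. Espn, encoding the actin bundler espin, measured 10.19, 11.22 and 10.10 against 6.15. None of the 13 genes was near background in the endoderm. Eps8, Pls1 (plastin 1) and Myo7b, each a component of microvilli, rose by 3.25, 3.63 and 3.02. Ezr, encoding ezrin, differed by 0.29 and was not called. Without the probe set types that can bind several transcripts, 7 of these genes could be tested, and 7 rose (adjusted p under 0.05 in limma).

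Carriers for the products of digestion rose as well. Of 17 sugar and peptide carriers tested out of 22 listed, 12 rose and 1 fell (median 2.75). Slc3a1, the heavy subunit of the cystine and dibasic amino acid carrier, measured 11.03, 12.46 and 11.89 in the villi and 6.16 in the endoderm. Slc15a1, the dipeptide carrier of the brush border, measured 10.62, 11.79 and 11.04 against 5.74, with crypt values of 5.66 to 6.01. Slc26a6, an anion exchanger, measured 11.54, 11.54 and 12.09 against 6.44. All villus values of the 3 carriers lay above the endoderm value, as they did for 47.8% of all genes tested. The adjusted p values in limma were 0.00019, 8.7e-05 and 0.00019. Slc5a1, the sodium-glucose cotransporter, rose by 5.24, and the glucose carrier Slc2a2 by 5.06. Slc2a1, a glucose carrier of many growing cells, did the reverse: it measured 7.17, 7.10 and 7.01 in the villi and 9.23 in the endoderm, a fall of 4.4-fold (-2.14 ± 0.20, adjusted p = 0.00019). Its crypt values, 7.11 to 7.43, were close to those of the villi.

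Among 8 genes of fructose and glucose handling, 5 rose and 0 fell. Khk, the ketohexokinase that starts fructose breakdown, rose 9.01-fold. Tkfc, which encodes the triokinase of the same pathway, measured 8.85, 10.00 and 9.76 in the villi and 6.60 in the endoderm. Pck1, a gluconeogenic enzyme, measured 5.66, 7.69 and 6.60 against 3.56, and G6pc (glucose-6-phosphatase) and Fbp1 (fructose-bisphosphatase) rose by 1.90 and 1.87. The other probe set of Pck1 differed by 0.20. In a fit of the villus and endoderm arrays alone, 3 of the 8 were called higher and Pck1 was not (adjusted p = 0.054). In glycolysis, 1 of 13 tested genes rose (7.69%) and 4 fell (30.8%), against 16.3% and 22.6% of all genes. Without probe set types that can bind several transcripts, 2 of 6 fell. The subunits of phosphofructokinase moved apart. Pfkp, the platelet type, measured 10.31, 10.97 and 10.24 against 6.37 in the endoderm, while Pfkl, the liver type, measured 8.48, 10.26 and 8.01 against 11.48. The Pfkl fall (-2.57 ± 0.74, adjusted p = 0.028) was not called without villus V12, crypt K12 or crypt K21. Ldhb, a lactate dehydrogenase subunit, fell by 0.99.

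Fat absorption showed a broad rise: of 24 genes tested out of 29 listed, 20 rose and 2 fell, with a median of 3.30. Apoc3, an apolipoprotein of triglyceride-rich particles, measured 12.48, 12.51 and 12.48 in the villi and 5.32 in the endoderm, a 144-fold rise (7.17 ± 0.26, adjusted p = 1.3e-05). Apoa4, another chylomicron protein, measured 12.46, 13.24 and 12.51 against 6.45. Apoc2, the activator of lipoprotein lipase, measured 11.27, 12.21 and 12.16 against 6.09. The villus values of the 3 genes were all more than 5 log2 units above the endoderm, but their crypt values differed in kind: 5.76 to 6.35 for Apoc3, 6.73 to 7.28 for Apoa4 and 10.00 to 10.42 for Apoc2. Among the enzymes and carriers behind chylomicrons, Mttp (the lipid transfer protein that loads apolipoprotein B) rose by 4.23, Dgat1 (triglyceride synthesis) by 4.83, Mogat2 (monoacylglycerol acylation) by 3.42 and Abcg5 (a sterol efflux transporter) by 5.52.

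Fabp1 and Fabp2, the cytosolic fatty acid binding proteins of the enterocyte, were already above background in the endoderm. Fabp2 measured 13.37, 13.48 and 13.37 in the villi and 9.09 in the endoderm, against 4.25 in the mesenchyme. Fabp1 measured 11.75, 10.29 and 12.61 in the villi and 8.45 in the endoderm, a rise of 3.10 ± 0.72 (adjusted p = 0.011, 0.074 in a fit of the villus and endoderm arrays alone). The endoderm value of Fabp1 was above the 3 crypt values, 5.77 to 5.98. The genes that fell were Scarb1, a receptor for high-density lipoprotein, at 6.55, 6.37 and 6.62 against 7.99, and Apoe, an apolipoprotein of remnants, at 5.27, 5.13 and 5.49 against 6.09. The Apoe values of the villi were near background, and its call was lost without villus V12 and in the fit of the villus and endoderm arrays alone.

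Of 11 genes of bile acid and retinoid handling, 6 rose and 0 fell. Fabp6, the ileal bile acid binding protein, measured 12.75, 12.84 and 10.57 in villi V12, V41 and V275 and 4.73 in the endoderm, so the villus samples themselves spanned over 2 log2 units. Rbp2, the retinol binding protein of enterocytes, measured 12.28, 12.56 and 12.75 against 6.84. Aldh1a1, which makes retinoic acid, measured 10.17, 9.84 and 9.27 against 5.67. Aldh1a1 was also high in the E12 mesenchyme, at 11.22, and low in the crypts, at 5.73 to 6.04. The related Aldh1a2 differed by -0.55 and was not called.

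Enzymes of xenobiotic metabolism rose in large number: 24 of 30 tested genes (38 listed) were called higher and 0 lower, with a median difference of 3.21. Cyp3a11, a cytochrome P450 of drug and steroid oxidation, measured 11.90, 11.36 and 11.79 in the villi and 5.05 in the endoderm, a rise of 6.64 ± 0.29 (adjusted p = 1.5e-05). Ces2e, a carboxylesterase, measured 10.21, 10.90 and 11.13 against 4.11. Cyp4f14, a P450 of fatty acid hydroxylation, measured 12.14, 12.39 and 12.64 against 5.80. The Cyp3a11 values of the crypts, 5.38 to 5.89, were near the endoderm value, while those of Ces2e, 6.68 to 8.51, were in between. Of the efflux pumps, Abcb1a rose by 4.81, Abcc2 by 3.45 and Abcg2 by 2.17. Glutathione transferases did not follow as a class, since Gstm3 rose by 2.20 while Gsta4, Gstm1 and Gstp1 differed by -0.91, -0.53 and 0.18 and were not called. Cyp2, Cyp3, Ces2 and the transferase genes have close relatives whose transcripts a probe set may share.

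Upstream sequence of 4 risen genes is shown because their promoter windows hold a motif of HNF4 or CDX factors, regulators of enterocyte genes. Windows came from RefSeq (GRCm38.p6), matched by symbol for 8613 of the 10750 genes, and run from 250 bases before to 50 after a start. The motifs searched, on either strand, were CAAAGTCCA for HNF4 and TTTATG for CDX. The first 250 bases are printed 5′ to 3′ on the gene's strand, with each match in capitals. Treh lies on the plus strand at chr9:44672983-44673232, Slc3a1 on the plus strand at chr17:85028097-85028346, Cyp3a11 on the minus strand at chr5:145879855-145880104 and Fabp1 on the plus strand at chr6:71199629-71199878.
Treh: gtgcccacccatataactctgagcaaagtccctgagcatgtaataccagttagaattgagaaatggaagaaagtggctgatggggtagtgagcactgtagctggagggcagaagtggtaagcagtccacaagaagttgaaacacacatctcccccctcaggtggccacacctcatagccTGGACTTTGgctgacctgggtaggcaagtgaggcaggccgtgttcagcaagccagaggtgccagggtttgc
Slc3a1: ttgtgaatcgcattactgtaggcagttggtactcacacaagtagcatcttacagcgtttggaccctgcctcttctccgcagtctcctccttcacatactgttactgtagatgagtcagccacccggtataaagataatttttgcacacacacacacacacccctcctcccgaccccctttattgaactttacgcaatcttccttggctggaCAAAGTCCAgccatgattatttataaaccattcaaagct
Cyp3a11: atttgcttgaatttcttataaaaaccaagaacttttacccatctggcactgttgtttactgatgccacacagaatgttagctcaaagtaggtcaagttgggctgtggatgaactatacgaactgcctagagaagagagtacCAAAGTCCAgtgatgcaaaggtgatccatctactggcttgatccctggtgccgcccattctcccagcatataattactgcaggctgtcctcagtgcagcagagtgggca
Fabp1: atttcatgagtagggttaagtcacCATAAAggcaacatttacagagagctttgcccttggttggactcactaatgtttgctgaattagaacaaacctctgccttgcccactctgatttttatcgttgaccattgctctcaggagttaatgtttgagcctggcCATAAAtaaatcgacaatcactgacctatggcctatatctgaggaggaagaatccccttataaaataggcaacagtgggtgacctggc
The HNF4 letters begin 71, 39 and 109 bases before the start in Treh, Slc3a1 and Cyp3a11, and the CDX letters begin 226 and 88 bases before it in Fabp1. In the whole 300-base windows, the HNF4 motif was in 25 of 1867 windows of genes called higher (1.34%), 10 of 2531 windows of genes called lower (0.395%) and 61 of all 11007 windows (0.554%). The CDX motif was in 7.39%, 5.85% and 7.09% of the same windows. CATAAA, the CDX motif on the other strand, resembles a TATA element, and 85 of 770 CDX matches (11%) began 40 to 20 bases before the start, a stretch that makes up 8.4% of the upstream bases. These shares are a description with no test, and a match is not evidence that a factor binds.

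Enzymes of purine and amino acid metabolism went both ways, with 6 of 18 tested genes higher (33.3%) and 8 lower (44.4%). Ada, adenosine deaminase, measured 11.98, 13.68 and 12.25 in the villi and 5.91 in the endoderm, a 106-fold rise (6.73 ± 0.57, adjusted p = 0.00013). Xdh, xanthine dehydrogenase, measured 10.98, 11.81 and 11.27 against 5.49, and Gda, guanine deaminase, measured 8.88, 9.60 and 9.83 against 4.23. The risen genes thus include 3 steps of purine breakdown, and Ada stayed at 5.81 to 6.01 in the crypts. Arg2 (mitochondrial arginase) and Otc (ornithine transcarbamylase) rose by 5.01 and 3.22. The fallen genes include the serine synthesis pathway. Psat1, a phosphoserine aminotransferase, measured 4.42, 4.63 and 4.68 against 9.65 in the endoderm, with 7.75 to 8.89 in the crypts. Phgdh, the first enzyme of that pathway, measured 9.05, 8.78 and 9.14 against 11.28, and Shmt2, the mitochondrial serine hydroxymethyltransferase, measured 6.69, 6.02 and 6.70 against 9.55. The 4 probe sets of Shmt2 gave differences from -3.09 to -0.20, with a median of -0.81. Psph, the phosphatase of serine synthesis, fell by 2.09, and Asns (asparagine synthetase) fell by 2.11. Without the probe set types that can bind several transcripts, 3 of 12 tested genes of this list rose.

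Of 25 genes of ion and mineral transport, 12 rose (48%) and 4 fell (16%). Clca1, a secreted protein of goblet cells, measured 12.25, 12.26 and 12.22 in the villi and 4.70 in the endoderm. These values, which place it among the 12 largest rises, are of its brightest probe set, and the other differed by 2.31. Aqp1, a water channel, measured 10.78, 10.18 and 11.44 against 4.94, and its crypt values of 10.07 to 10.91 overlapped those of the villi. Vdr, the vitamin D receptor, measured 10.18, 9.23 and 9.88 against 5.17. Iron and calcium genes held values in the other direction. Slc40a1, the iron exporter ferroportin, measured 6.66, 7.72 and 6.85 in the villi and 10.44 in the endoderm (-3.37 ± 0.62, adjusted p = 0.0042), and Tfrc, the transferrin receptor, measured 9.17, 8.11 and 8.19 against 11.28. S100g, the calcium binding protein calbindin-D9k, was near background in the villi at 4.94, 4.99 and 4.60 and measured 7.28 in the endoderm. Heph, the ferroxidase hephaestin, rose by 2.55, while the iron importer Slc11a2 and the calcium channel Trpv6 differed by 0.23 and 0.17 and were not called.

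Genes of mucosal defence rose in 13 of 24 tested cases (29 listed) and fell in 0, with a median of 2.01. Besides Reg3g, Lgals3 and Pigr, Muc3 (a membrane mucin) rose by 6.82, Reg3b (a lectin related to Reg3g) by 6.61, Ccl25 (a chemokine of the small intestine) by 5.21 and Muc13 by 3.78. Sensors of bacteria did not stand out: Tlr2, Tlr5 and Cd14 differed by 0.39, -0.07 and 0.65 and were not called. Of 17 antigen presentation genes, 16 rose and 0 fell, with a median of 3.98. Cd74, the invariant chain of class II molecules, measured 12.94, 13.11 and 13.00 in the villi and 6.06 in the endoderm (6.95 ± 0.32, adjusted p = 1.6e-05). H2-Aa, a class II chain, measured 12.08, 12.71 and 12.81 against 5.69, and Ctss, the protease cathepsin S, measured 10.08, 11.05 and 10.59 against 4.83. The class I light chain B2m rose by 3.34 and the immunoproteasome subunits Psmb8 and Psmb9 by 4.46 and 3.97. Without probe set types that can bind several transcripts 9 of these genes were tested and 9 rose.

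Interferon-stimulated genes were higher in the villi but uneven among the villus samples. Of 22 tested out of 30 listed, 16 rose and 1 fell (median 2.52). Oasl2, an antiviral gene, measured 8.26, 11.07 and 10.11 in villi V12, V41 and V275 and 5.04 in the endoderm. Ubd, which encodes a ubiquitin-like protein, measured 6.65, 10.79 and 10.10 against 4.84. Irf7, an interferon regulatory factor, measured 10.02, 11.49 and 10.74 against 7.14. Villus V12 was the lowest of the 3 in each gene, and so it was for the mean of the list, at 7.65 against 9.26 and 8.64, with 6.31 in the endoderm and 6.81 to 7.20 in the crypts. Ifit2 alone was called lower, at 4.69, 5.28 and 4.94 against 7.26. The count of higher genes was 7 in a fit of the villus and endoderm arrays alone and 10 without crypt K21, and the Ubd call (4.34 ± 1.33, adjusted p = 0.035) was lost in both.

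Genes of the secretory lineages rose in the villi. Of 12 goblet cell genes, 11 rose and 0 fell, with a median of 4.21. Zg16, a mucus lectin, measured 13.38, 13.25 and 13.14 in the villi and 6.97 in the endoderm, and Spink4, a peptide of goblet granules, measured 12.13, 11.68 and 11.57 against 5.37. The crypt values of Spink4, 13.48 to 13.70, were above those of the villi. Tff3 (trefoil factor 3), Fcgbp and Agr2, products or helpers of mucus secretion, rose by 5.20, 4.92 and 3.86, and Atoh1, the transcription factor of the secretory lineage, by 2.15. Spdef, a goblet cell regulator, differed by 0.89 and was not called.

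Of 7 tested genes on the Paneth cell list, whose cells sit at the crypt base, 5 rose and 2 fell. Lyz1, Paneth lysozyme, measured 13.01, 10.10 and 11.55 in villi V12, V41 and V275, 5.21 in the endoderm and 14.11 to 14.23 in the crypts. Itln1, an intelectin, measured 11.26, 8.97 and 9.55 against 5.48, and Mmp7, the matrilysin that activates defensins, 9.66, 8.67 and 9.08 against 7.30. Villus V12 was the highest of the 3 villus samples for each, and all villus values lay under the crypt values of 13.80 to 13.95 for Itln1 and 13.30 to 13.45 for Mmp7. The genes that fell were Sox9, taken up with the stem cell genes, and Habp2, a serine protease gene, which fell by 1.17. How many crypt bases came with the villi was not tested. Lyz1 and Habp2 were not called without probe set types that can bind several transcripts, and the count of higher genes was 3 there and in 6 other settings, among them those without crypt K12, crypt K21 or villus V275.

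Genes of the enteroendocrine cell list, which holds hormones, granins and transcription factors, rose in 12 of 20 tested cases and fell in 0 (median 1.42). Chgb, a granin of hormone granules, measured 10.08, 9.87 and 9.56 in the villi and 4.82 in the endoderm. Gip, an incretin of the proximal gut, measured 10.82, 9.69 and 10.90 against 5.90, and Nts, neurotensin, measured 10.14, 11.11 and 10.43 against 6.30. Sst, Sct and Pyy, encoding somatostatin, secretin and peptide YY, rose by 2.90, 2.64 and 2.53. The endocrine progenitor factors Neurog3, Pax4 and Insm1 differed by 0.34, 0.44 and 0.54 and were not called. On the tuft cell list, 2 of 8 genes rose, Alox5ap (leukotriene synthesis) by 1.21 and Avil (an actin binder) by 0.99, and neither was called in the fit of the villus and endoderm arrays alone.

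T cell genes were called higher in 15 of 17 tested cases and lower in 0, with a median of 1.55. Gzma, a granzyme of cytotoxic lymphocytes, measured 10.55, 11.22 and 11.89 in villi V12, V41 and V275 and 5.73 in the endoderm (5.49 ± 0.44, adjusted p = 0.00012). Ccl5, a chemokine of effector T cells, measured 10.29, 10.95 and 11.66 against 6.41, and Gzmb, another granzyme, 9.30, 10.34 and 10.96 against 6.36. Villus V275 was the highest for the 3 genes and villus V12 the lowest, and the list means ran 7.68, 7.94 and 8.46 against 5.98. Cd3e, a chain of the T cell receptor complex, measured 8.73, 8.57 and 8.87 against 7.72, Cd3g rose by 3.74 and Cd8a by 1.96, while Cd4 differed by 0.40 and was not called. Ptprc, the pan-leukocyte gene for CD45, measured 8.14, 8.28 and 8.60 against 5.07. These cells are not of endodermal origin, and the part of immune cells in the rise of antigen presentation and interferon genes was not tested.

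Markers of other non-epithelial cells differed by cell type. Of 14 myeloid genes 5 rose (35.7%, against 16.3% of all genes). They include Ptprc, Mrc1, a mannose receptor, by 1.25, and Lyz2, which shares sequence with Lyz1, by 2.51. The macrophage genes Csf1r, C1qa and Adgre1 differed by 0.37, 0.48 and 0.39 and were not called. The myeloid count was 2 without villus V275 or in the fit of villus and endoderm arrays alone, and 3 without any 1 of the crypt arrays. On the B and plasma cell list 1 of 6 genes was called higher (16.7%, near the share of all genes). It was Jchain, the joining chain of secreted antibodies (2.79 ± 0.90, limma adjusted p = 0.042), a call lost without villus V12, villus V275 or crypt K21. By limma 0 of 11 endothelial genes were called, and 0 had an unadjusted p under 0.05; Tie1, an endothelial receptor, differed by 0.58. By limma 0 of 9 neural crest genes were called, and 1 had an unadjusted p under 0.05, Ret, the receptor of enteric neural progenitors, which differed by 0.56.

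Of 16 stroma genes, 2 rose (12.5%) and 5 fell (31.25%), against 16.3% and 22.6% of all genes, with a list median of -0.27. Vim, the intermediate filament vimentin, measured 6.89, 7.42 and 7.49 in the villi, 10.36 in the endoderm and 12.00 in the mesenchyme, and Fn1, fibronectin, measured 7.83, 7.89 and 7.90 against 11.09 and 11.37. Col3a1, a fibrillar collagen, measured 4.10, 4.16 and 4.46 in the villi, 7.51 in the endoderm and 11.97 in the mesenchyme. Its call was lost without probe set types that can bind several transcripts. Col1a1 and Col1a2 differed by -0.11 and -0.09 and were not called, and the list means were 6.55 to 6.78 in the villi, 7.32 in the endoderm and 10.16 in the mesenchyme. The part of mesenchyme carried over in the endoderm dissection was not tested. The count of fallen stroma genes was 3 without villus V12 or crypt K21. Thy1 and Pdgfrb rose by 0.97 and 0.59, and neither call held without any 1 of the crypt arrays. On the smooth muscle list Mylk, myosin light chain kinase, rose by 2.71, Tagln, transgelin, fell by 0.65 (a call lost without any 1 of the villus arrays or crypt K21), and Acta2, smooth muscle actin, measured 8.25, 7.79 and 7.91 against 8.29. Hbb-y, an embryonic globin, measured 5.87, 5.86 and 6.05 in the villi, 7.48 in the endoderm and 12.40 in the mesenchyme pool, and was the 1 gene of 9 called on the erythroid list. These values are of its brightest probe set, which had the smallest fall: its 3 probe sets gave differences from -5.43 to -1.56, with a median of -5.16.

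Genes of fetal growth were higher in the endoderm. Of 18 tested out of 25 listed, 0 rose and 14 fell, with a median of -3.13. All 3 villus values lay below the endoderm value for 17 of them, and for 37% of all genes tested. Igf2, the imprinted insulin-like growth factor, measured 8.45, 8.87 and 8.62 in the villi and 12.25 in the endoderm (-3.61 ± 0.23, adjusted p = 4.7e-05). Grb10, an imprinted growth inhibitor, measured 6.12, 5.93 and 6.09 against 11.45, and its 3 probe sets gave differences from -5.40 to -0.83 with a median of -1.36. Hmga2, a chromatin protein of embryonic cells, measured 6.64, 6.57 and 6.27 against 11.64, and Igf2bp3, which binds Igf2 mRNA, measured 5.93, 5.83 and 5.81 against 10.71. Peg3, an imprinted zinc finger gene, measured 6.66, 6.90 and 6.55 against 11.77. The crypt means of the list, 6.32 to 6.58, were at the level of the villi, 6.48 to 6.56, and not at the 9.51 of the endoderm. The mesenchyme array read 10.63, so these genes were high in both embryonic layers. Of other imprinted genes, Plagl1 fell by 4.67, Cdkn1c fell by 3.15 and Nnat fell by 3.11, while Igf2r and Ndn differed by -0.64 and -0.33 and were not called. Without probe set types that can bind several transcripts, 9 of 14 tested genes fell.

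Genes of plasma proteins that the fetal liver and yolk sac make were in part present in the endoderm. Of 11 tested, 0 rose and 4 fell. Ambp, a precursor of a protease inhibitor, measured 5.09, 4.83 and 5.08 in the villi and 9.43 in the endoderm, and Rbp4, the plasma retinol carrier, measured 5.45, 5.77 and 5.82 against 9.93. Afp, alpha-fetoprotein, measured 6.14, 5.51 and 6.43 against 8.81 (its 5 probe sets differed by -3.38 to 0.75), and Ttr, transthyretin, fell by 2.70. The mesenchyme values of Ambp, Rbp4 and Afp were 5.11, 5.33 and 5.16, close to or under those of the villi. Alb (albumin) and Ahsg (fetuin) differed by 0.38 and 0.43 and were not called.

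DNA replication genes fell without exception among those tested: 30 of 30 (33 listed), with a median of -2.66. Rrm2, the ribonucleotide reductase subunit made in S phase, measured 4.93, 6.06 and 5.93 in the villi and 10.13 in the endoderm (-4.49 ± 0.60, adjusted p = 0.00088). Mcm5, a subunit of the replicative helicase, measured 6.78, 6.45 and 6.51 against 10.54, and its partner Mcm7 measured 7.85, 7.66 and 7.71 against 11.66. Pcna, the sliding clamp of DNA polymerase, fell by 3.26. The crypts lay in between for Mcm5, at 8.05 to 8.45, and for Mcm7, at 9.72 to 9.92. Over the list, the median of crypt minus endoderm was -1.82 and that of villus minus crypt -0.83, so the level of adult crypts was also under that of the E12 endoderm. The mesenchyme differed from the endoderm by a median of -0.35.

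Mitosis genes fell in 29 of 31 tested cases and rose in 0, with a median of -2.81. Top2a, topoisomerase II alpha, measured 6.74, 6.19 and 7.18 in the villi and 10.88 in the endoderm. Mki67, the proliferation antigen Ki-67, measured 7.40, 5.99 and 6.18 against 10.40, and Cdk1, the mitotic kinase, 7.28, 6.72 and 6.71 against 10.76. The crypt values of Mki67, 9.98 to 10.21, were near the endoderm value, while those of Cdk1, 8.83 to 9.39, were lower than it. Kif2c and Cenpe differed by -0.13 and -0.55 and were not called. Another probe set of Top2a differed by 0.41, while the brightest, used here, differed by -4.18.

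The upstream 250 bases of Mcm7, on the minus strand at chr5:138171884-138172133, and of Hells, a chromatin remodeler that also fell, on the plus strand at chr19:38930740-38930989, are shown because each holds an E2F motif, TTTGGCGC or TTTCCCGC on either strand, in capitals (RefSeq, GRCm38.p6, 5′ to 3′ on the gene's strand).
Mcm7: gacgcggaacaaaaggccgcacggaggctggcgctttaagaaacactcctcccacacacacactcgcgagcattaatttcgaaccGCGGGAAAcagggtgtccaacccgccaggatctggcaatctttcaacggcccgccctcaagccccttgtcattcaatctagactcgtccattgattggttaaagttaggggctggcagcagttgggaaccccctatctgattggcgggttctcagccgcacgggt
Hells: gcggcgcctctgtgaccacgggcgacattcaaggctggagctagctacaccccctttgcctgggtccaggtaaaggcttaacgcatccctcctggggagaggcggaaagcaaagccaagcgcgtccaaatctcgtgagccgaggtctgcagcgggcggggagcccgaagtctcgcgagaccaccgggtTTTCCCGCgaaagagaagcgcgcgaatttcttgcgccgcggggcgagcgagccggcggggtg
The match begins 165 bases before the start in Mcm7 and 62 bases before it in Hells. E2F factors drive genes of S phase. In whole windows the motif was in 114 of 2531 windows of genes called lower (4.5%), 32 of 1867 windows of genes called higher (1.71%) and 295 of all 11007 (2.68%). As above, this is a count of letters with no test.

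Machinery of growth fell together with the cell cycle. Of 24 ribosome assembly genes 23 fell and 0 rose, with a median of -2.32. Npm1, the nucleolar chaperone nucleophosmin, measured 8.63, 7.55 and 8.36 in the villi and 12.60 in the endoderm (-4.42 ± 0.43, adjusted p = 0.00022). Ncl, nucleolin, measured 8.61, 7.39 and 7.52 against 11.51, and Fbl, the rRNA methylase fibrillarin, 8.42, 7.66 and 7.71 against 11.56. Of 23 chaperone genes 19 fell and 0 rose (median -2.30). Hspd1 and Hspe1, the mitochondrial chaperonin pair, measured 8.93, 7.89 and 8.15 against 12.08 and 8.43, 6.75 and 7.72 against 11.47. Villus V41 was the lowest of the 3 for both genes. Each subunit of the cytosolic chaperonin on the list fell, with differences from -1.25 for Cct2 to -2.87 for Tcp1. The heat-inducible Hspa1a, Hspa1b and Dnajb1 differed by -2.00, -2.49 and 0.48 and were not called. Fkbp4, a co-chaperone of steroid receptors, fell by 3.41, a call lost without probe set types that can bind several transcripts.

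Chromatin and RNA processing genes fell too. Of 25 genes of Polycomb, chromatin and DNA methylation, 21 fell and 0 rose (median -2.10). Hells measured 4.25, 4.16 and 4.14 in the villi and 8.42 in the endoderm, Nasp, a histone chaperone, 6.51, 6.10 and 6.32 against 10.02, and Hmgb2, a DNA-bending protein of dividing cells, fell by 3.36. Ezh2, the histone methylase of Polycomb complex 2, fell by 2.77, Dnmt1 (maintenance DNA methylation) fell by 2.97 and Dnmt3a fell by 2.31, while Dnmt3b and Tet1 differed by -0.45 and 0.33 and were not called. Of 19 splicing factors 17 fell and 0 rose (median -2.06), among them Hnrnpr at 6.94, 6.42 and 6.82 against 9.72. Without probe set types that can bind several transcripts, 7 of 13 tested splicing genes fell, and the remaining probe set of Srsf3 differed by 0.04 in place of -2.55.

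Of 31 intestinal transcription factors tested, 10 were higher (32.3%, against 16.3% of all genes) and 7 lower (22.6%, the same share as of all genes). Cdx2, which sets intestinal identity, measured 10.96, 9.84 and 10.89 in the villi and 11.06 in the endoderm, a difference of -0.50 ± 0.46 (adjusted p = 0.41). Hnf4a, an activator of enterocyte genes, measured 11.83, 12.28 and 11.98 against 10.51 (1.53 ± 0.23, adjusted p = 0.0017). Both were thus well above background at E12, and the mesenchyme array read 6.57 and 7.28. Klf4, a factor of cell-cycle exit and goblet cells, measured 11.52, 11.61 and 11.30 against 6.93, and Creb3l3, a factor of lipid metabolism, 11.08, 11.46 and 11.31 against 7.71. Cdx1, a relative of Cdx2, rose by 2.34, and the xenobiotic receptor Nr1i2 by 2.75.

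Foxa1, a pioneer factor of early endoderm, measured 7.98, 8.38 and 7.27 in the villi and 11.29 in the endoderm (-3.41 ± 0.38, adjusted p = 0.00041), with 8.78 to 8.99 in the crypts. Foxa2 fell by 1.32 and Gata4 fell by 1.02, while Gata5 rose by 1.67 and Gata6 differed by -0.07 and was not called. Sox11, a factor of embryonic progenitors, measured 3.88, 3.91 and 3.83 against 6.80. Nr5a2, a nuclear receptor of endoderm and crypts, measured 8.28, 6.29 and 6.86 against 9.23, a call (adjusted p = 0.039) lost without villus V275 or any 1 of the crypt arrays.

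On the list of Wnt targets and stem cell genes, 1 of 21 rose and 5 fell (23.8%), a share of falls near the 22.6% of all genes. Lgr5, the receptor that marks crypt base stem cells, measured 6.35, 6.67 and 6.91 in the villi, 8.54 in the endoderm and 8.17 to 9.40 in the crypts (villus minus endoderm -1.90 ± 0.44, adjusted p = 0.011). Sox9, a factor of crypt progenitors and Paneth cells, measured 6.61, 5.82 and 5.93, with 7.85 in the endoderm and 7.60 to 8.24 in the crypts. The endoderm value of Lgr5 and that of Sox9 lay within the crypt range and above all villus values. Myc, a Wnt target of growth control, measured 5.99, 6.04 and 6.07 against 7.82, with 7.24 to 7.65 in the crypts. Fzd2, a Wnt receptor, measured 6.83, 7.09 and 7.16 against 9.11, and its crypt values of 6.72 to 7.20 were at the villus level and not at that of the endoderm. Ascl2 and Axin2 differed by 0.04 and 1.34 and were not called. Without villus V12, 8 genes of this list were called lower in place of 5.

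Signals between epithelium and mesenchyme were changed in a few members. Of 25 genes of the Hedgehog, BMP and Notch pathways 5 rose and 7 fell, shares near those of all genes (16.3% and 22.6%). Shh, the Hedgehog ligand of the early gut epithelium, was near background in the villi at 4.91, 5.17 and 4.94 and measured 8.05 in the endoderm (-3.05 ± 0.20, adjusted p = 5.4e-05). Ihh, the Hedgehog ligand of the adult epithelium, measured 8.78, 8.68 and 9.45 against 9.82, and its difference of -0.86 ± 0.32 did not pass the test (adjusted p = 0.067). Their receptor Ptch1 and the target Gli1 differed by 0.14 and -0.12 and were not called. Bmp2, a growth-restraining ligand, measured 7.95, 9.38 and 8.85 against 6.75, and Smad7, a feedback inhibitor of the pathway, 10.18, 10.41 and 9.72 against 8.20. Id1, a BMP target, rose by 1.34, while Id2, related to it, fell by 2.10. Notch2 measured 5.13, 5.84 and 4.93 against 8.50 on its brightest probe set (-3.20) but differed by 0.44 on the other. Notch1 fell by 1.92 and the Notch target Hes1 fell by 1.26, while the ligands Dll1 and Dll4 rose by 1.29 and 0.85. The count of risen genes was 3 without villus V275 or crypt K21, where Id1 was not called, Bmp2 was not called in the fit of villus and endoderm arrays alone, and Id2 was not called without probe set types that can bind several transcripts.

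Of the 28 epithelial identity genes, 12 rose and 3 fell. Cldn15, a claudin of the small intestine, measured 10.68, 10.58 and 11.14 in the villi and 5.93 in the endoderm, and Krt20, a keratin of differentiated gut cells, 13.01, 13.67 and 13.30 against 8.81. Cldn6, a claudin of embryonic epithelia, measured 5.16, 4.92 and 5.23 against 9.60 (-4.50 ± 0.23, adjusted p = 2.1e-05). The crypt values of Cldn15, 10.12 to 10.62, and of Cldn6, 5.05 to 5.42, were close to those of the villi. Esrp1, an epithelial splicing regulator, and Grhl2, an epithelial transcription factor, had differences of -1.81 and -1.46, both called lower, and the Grhl2 call was lost with the median of its probe sets.

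On the basement membrane list 3 of 19 genes rose (15.8%) and 6 fell (31.6%), against 16.3% and 22.6% of all genes. Without probe set types that can bind several transcripts, 1 of 15 rose. Lama3, a laminin chain of hemidesmosomes, measured 9.21, 10.34 and 8.24 in the villi and 5.81 in the endoderm, and Itgb4, the integrin chain that binds that laminin, 9.22, 9.62 and 9.45 against 6.20. Lamc1 and Lama1, chains of early basement membranes, measured 5.76, 5.67 and 5.98 against 8.18 and 5.16, 5.37 and 5.41 against 7.06. The other probe set of Lamc1 differed by -0.04. Itga3 rose by 1.85, while Lamb1 fell by 1.83, Col4a1 fell by 1.02 and Col4a2 fell by 1.12. The Lama3 values of the crypts, 5.80 to 6.00, were at the endoderm level.

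In several other pathways the shares of genes called were under or near those of all genes. Of 25 respiratory chain genes 2 rose and 0 fell, with a median of 0.01: Cycs, cytochrome c, by 1.58, and Ndufa1, of complex I, by 1.04, of which the first was not called with the median of its probe sets or without probe set types that can bind several transcripts, and the other was not called without villus V12, villus V275 or crypt K12. Of 22 genes of fatty acid oxidation and the peroxisome 5 rose (22.7%, against 16.3% of all genes) and 1 fell, and 10 rose without villus V41. Ehhadh, a peroxisomal enzyme, measured 8.42, 7.82 and 8.65 in the villi and 4.58 in the endoderm, and Acot1, an acyl-CoA thioesterase, 4.36, 4.48 and 4.55 against 8.80. Of 18 cholesterol synthesis genes 1 fell, Mvk (mevalonate kinase) by 0.90. By limma 0 of 20 Hox genes tested were called and 0 had an unadjusted p under 0.05, while their cofactors Meis1 fell by 2.93 and Meis2 fell by 0.93. Of 15 clock genes 2 rose and 1 fell by limma, and the calls of Clock, Npas2 and Nfil3 were each lost without crypt K21.

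Immediate early genes respond to handling as well as to growth signals. Among 19 there were 1 rise (5.26%) and 6 falls (31.6%), against 16.3% and 22.6% of all genes. Ccn1, a matrix protein of the serum response, measured 5.36, 5.59 and 5.52 in the villi and 9.73 in the endoderm, and Egr1 8.45, 9.09 and 8.06 against 11.57. Junb measured 8.95, 9.97 and 9.29 against 7.75, a rise not called in the fit of the villus and endoderm arrays alone, and Fos and Jun differed by 1.02 and -0.74 and were not called. The list mean was 8.30 to 9.22 in the villi, 7.17 to 7.19 in the crypts, 9.01 in the endoderm and 9.03 in the mesenchyme. The part of tissue handling was not tested.

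**Figure D3:**
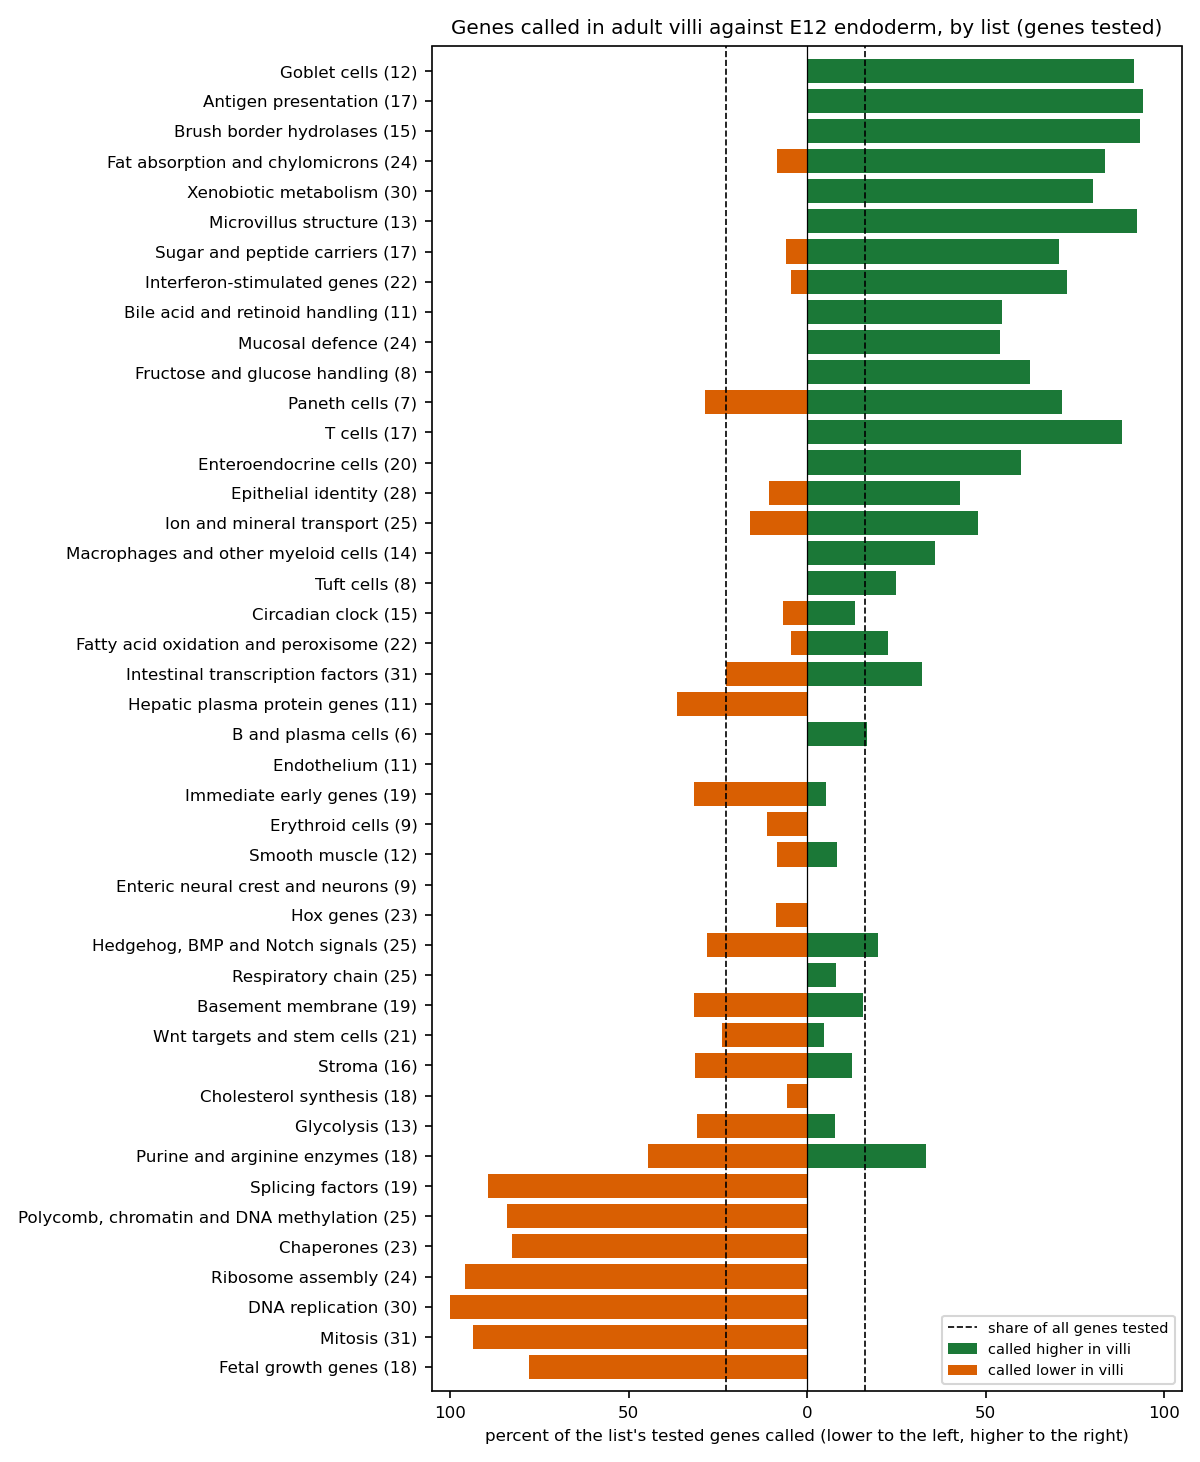
Percent of the tested genes of 44 lists called higher (bars to the right) or lower (bars to the left) in the villi, sorted by median difference, with the number of genes tested in brackets and dashed lines at the shares of all genes, 16.3% higher and 22.6% lower. Lists of digestion, absorption, defence and secretory cells extend to the right, and those of replication, mitosis, ribosome assembly and chromatin to the left.

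The adult crypts and the mesenchyme of the same table were set beside the genes called. The crypt mean was between the endoderm value and the villus mean for 1377 of the 1756 genes called higher and for 1978 of the 2429 called lower. Crypts and villi are set against the same endoderm array here, and called genes were picked for a gap between endoderm and villi. A crypt mean close to either end also counts as between. This is therefore a description of order and not a test. The mesenchyme array was above the endoderm array for 749 of the higher and 811 of the lower genes. Neither the crypt nor the mesenchyme counts were made over all tested genes, so no share of all genes can be set beside them. The plot of list means by array shows how the layers are ordered: brush border hydrolases averaged 6.88 in the endoderm, 7.24 to 7.95 in the crypts and 10.62 to 11.18 in the villi. Mitosis genes averaged 8.97, 7.45 to 7.67 and 6.01 to 6.38 in the same order. Goblet cell genes averaged 6.63 in the endoderm, 10.57 to 10.84 in the crypts and 10.37 to 10.79 in the villi, so crypts and villi overlapped there and both lay above the endoderm.

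**Figure D4:**
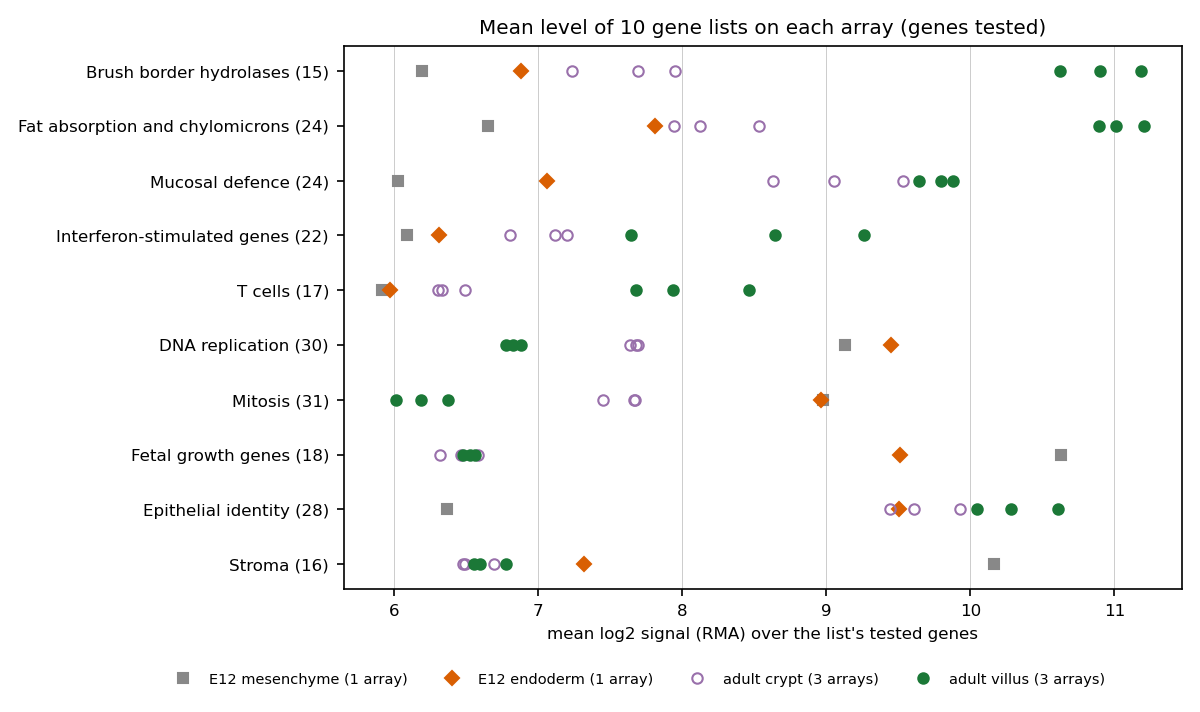
Mean log2 signal (x axis) over the tested genes of 10 lists on each of the 8 arrays, with filled circles for villi, open circles for crypts, a diamond for the endoderm and a square for the mesenchyme. Brush border and fat absorption genes are high in the villi with crypts near the endoderm, DNA replication and mitosis genes fall from endoderm to crypts to villi, and the villus samples are most spread for interferon-stimulated genes, 7.65 to 9.26.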

How the data were processed

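RNA of 3 villus, 3 crypt, 1 endoderm and 1 mesenchyme sample was measured on arrays of 22690 probe sets. The deposited values are log2 signals that the authors made with RMA, per the submitters' processing notes, with no version or settings named there. Of the probe sets, 64 were controls, 691 had several symbols, 1555 had none and 20380 had 1, by the platform annotation. Each of 12393 genes was taken as its brightest probe set, and 10750 genes over the 30th percentile in at least 1 array were tested with limma 3.58.1 (R 4.3.3): 4 groups, contrast villus minus endoderm, 4 residual degrees of freedom, Benjamini-Hochberg adjustment over all tested genes, called at 0.05. The fit was tested on simulated data. Array medians were 6.67 to 6.80. The number of arrays limits the precision. The p-values rest on the spread among the villus arrays and among the crypt arrays. None of that spread comes from the endoderm, which has 1 array.

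The genes named are the 12 largest rises and falls, the 3 largest called in each direction of each of 44 lists, and a fixed set of markers; other list members were named after their values were seen. The members and lists were chosen with earlier results of these data known. The other 6 arrays of the series, normalized apart, were not used here. The labels do not say whether crypts and villi numbered 12 or 41 share an animal. Deviations from the group means correlated at 0.15 for K12 with V12 and 0.065 for K41 with V41. Across the numbers they correlated at -0.078 for K12 with V41 and -0.095 for K41 with V12.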

Additional observations from a re-analysis of the deposited data

How the results depend on the processing

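The 4185 calls (1756 higher, 2429 lower) became 2624, of which 980 were higher, at an adjusted p under 0.01. In the 16 other settings (filters on dim genes, choice of probe set, quantile normalization, the variance prior, the arrays in the fit) the counts stayed within 1.5 times the reported ones. Of these settings, leaving out the E12 mesenchyme array could not change the counts, since it is alone in its group and adds no spread. Leaving out 1 adult array at a time gave 3526 to 4180 calls, 1402 to 1794 higher and 2124 to 2402 lower. The villus and endoderm arrays alone gave 3165. The replicate number as a random replicate block, with an estimated correlation of 0.10, gave 4175 calls, 1749 higher and 2426 lower. Of 158 named genes that were called, 124 kept the call in every setting in which they were tested. Some of the 124, among them Meis1, Sox11 and Ccn1, were not tested in every setting. Among the named genes, signs turned without probe set types that can bind several transcripts: Habp2 to 0.15 and Srsf3 to 0.036. Over all called genes, 51 had the opposite sign in that setting and 34 with the median of each gene's probe sets. The median of the Hedgehog, BMP and Notch genes, 0.02, turned to -0.12 with the median of each gene's probe sets and ranged from -0.014 (without villus V12) to 0.11 when 1 adult array was left out. Array signal limits low levels: 346 genes called higher were near background in the endoderm, and 377 called lower were near background in the villi.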
